A study of Homo sapiens with 9 samples.

Results

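The comparison set the 3 capsule columns of a table of read counts per gene against all 6 spheroid columns of the same table. The members were chosen by column name: the 3 columns named as capsules, and the 6 remaining count columns, which together are all 9 samples of the series. The labels assign every sample to MDA-MB-231, an established human line from a triple-negative breast cancer, and describe 3 samples each of capsules, small liquid overlay spheroids and large liquid overlay spheroids. The names of the spheroid columns give no size, so small and large spheroids were pooled. All groups share the same stated conditions in the labels, capsules included: RPMI with 10% fetal bovine serum, liquid overlay with 5% Matrigel after trastuzumab (an antibody against ERBB2), wild-type cells, and RNA taken at 96 h. What a capsule is made of is not given in the sources used here, and nothing says that replicates are separate cultures, so p-values measure the spread between these samples, which may be technical.

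MDA-MB-231 is known as a mesenchymal-like line with strong CD44, AXL and caveolin expression, high interferon and NF-kB target expression, and a homozygous deletion at 9p21 that removes the cell cycle inhibitor CDKN2A and its neighbour MTAP. Cells grown as compact aggregates are known to face limits of oxygen and nutrients. The transcription factor ATF4 raises amino acid synthesis and transport genes when amino acids run short or the unfolded protein response is active, and p53 raises genes of growth arrest and apoptosis under stress.

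The 6 spheroid columns held 2 unlike expression profiles. Of these columns, 3 carry "L.O." in their names and 3 carry "Sph.WT". They are called the L.O. and Sph.WT columns here, since neither name tells size. Pearson's r of log2(CPM + 0.5), with CPM the read counts scaled to a common library size by TMM, was computed across 16985 genes, which are not independent replicates. It was 0.977 to 0.985 between capsule and L.O. libraries, 0.733 to 0.744 between capsule and Sph.WT libraries, and 0.719 to 0.739 between L.O. and Sph.WT libraries. Within each of the 3 sets it was 0.993 to 0.996. The biological coefficient of variation was 6.01% among capsules, 8.31% among L.O. libraries and 8.12% among Sph.WT libraries, but 52.8% among the 6 spheroid libraries together. Mean levels of capsules lay over 2-fold (log2(CPM + 0.5)) from those of the L.O. columns for 586 genes (3.45%) and from those of the Sph.WT columns for 8140 genes (47.9%). Column names split the same way: the capsule and L.O. names share one file ending and the Sph.WT names have another. The capsule and L.O. names also start with "MDA", and the Sph.WT names hold no name of a cell line. Cell source, handling and sequencing run cannot be told apart from this split. Results are therefore given for all 6 spheroid columns and for each set of 3.

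**Figure D1:**
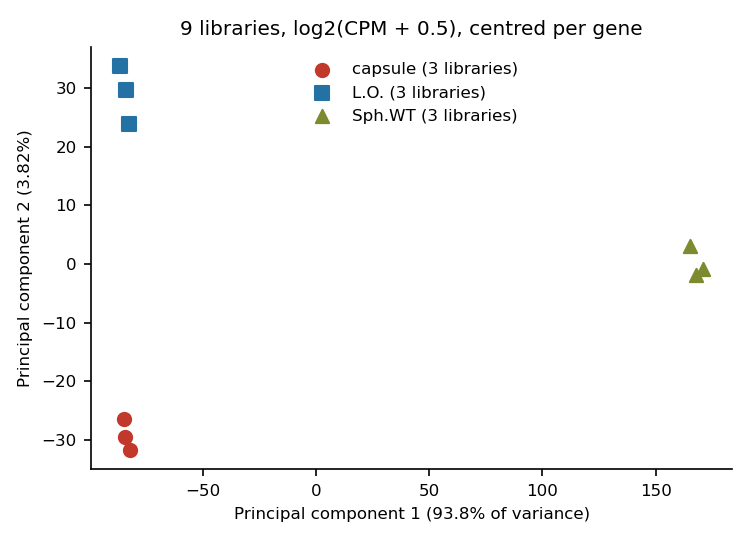
Principal components of log2(CPM + 0.5) over 16985 genes, 1 point per library, coloured by capsule, L.O. and Sph.WT columns. The first component (93.8% of the variance) separates the Sph.WT libraries from the other 6, and the second (3.82%) separates capsule from L.O. libraries.

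Library totals ran from 13212665 to 13735221 counts in capsules, from 15525725 to 15988167 in L.O. and from 16605098 to 33263076 in Sph.WT columns. A count of 0 allows up to 3 counts, or 0.110 to 0.220 CPM depending on the library. These floors cover counting error only. No pair of replicates agreed within sampling noise: at least 1203 genes differed per pair by a chi-square test (1203 of 14508 for capsules 1 and 2). Such differences do not tell separate cultures from technical repeats. Every library was counted as 1 sample.

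Many genes known for MDA-MB-231 were low in capsules and L.O. columns and abundant in Sph.WT columns. CD44, the hyaluronan receptor, was at 2.49, 1.90 and 1.96 CPM in capsules, 4.98, 5.24 and 4.69 in L.O. and 955, 1080.2 and 1014 in Sph.WT columns. The receptor kinase AXL was at 1.17, 0.705 and 0.490 CPM in capsules, 2.97, 2.97 and 2.85 in L.O. and 815, 808 and 802 in Sph.WT columns. S100A4, a calcium-binding protein linked to motility, was at 1.54, 1.27 and 1.40 CPM in capsules, 2.80, 2.11 and 2.90 in L.O. and 692, 770.1 and 764 in Sph.WT columns. For all 3 genes the L.O. values lay a little above the capsule values, and both lay far below every Sph.WT library. Caveolin-1 (CAV1) was also high in the Sph.WT columns alone, at 14.9, 18.5 and 15.1 CPM in capsules, 19.1, 19.1 and 15.9 in L.O. and 647, 731 and 787 in Sph.WT columns. Of 35 genes on a list typical of MDA-MB-231, 34 were lower and 1 was higher in capsules than in Sph.WT columns by edgeR's quasi-likelihood test at an adjusted p under 0.05, where 42.9% of all genes were lower and 43.2% higher. The list's summed level was 1657 to 1768 CPM in capsules, 1894 to 1984 in L.O. and 14672 to 16449 in Sph.WT columns. Its median log2 difference was -4.30, against 0.01 over all genes tested. Against L.O. columns 15 of 32 tested members were lower and 1 higher, where 25.4% of all genes were lower and 24.7% higher, and the median was -0.27, against -0.01 over all genes. The exception, higher against Sph.WT columns, was the detoxifying enzyme GSTP1 (0.34 on the log2 scale), whose direction turned under GC and length offsets.

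The 9p21 genes that MDA-MB-231 is known to lack were expressed in capsules and L.O. columns. CDKN2A was at 537, 526 and 451 CPM in capsules and 415, 430.4 and 604 in L.O. columns, but at 1.02, 0.773 and 0.780 CPM in Sph.WT columns. MTAP, the methionine salvage enzyme, was at 75.4, 71.7 and 79.3 CPM in capsules, 56.3, 51.8 and 48.3 in L.O. and 1.56, 0.626 and 1.63 in Sph.WT columns. The CDK4 inhibitor CDKN2B was at 17.5, 18.5 and 19.4 CPM in capsules, 27.6, 27.2 and 30.7 in L.O. and 0.359, 0.0736 and 0 in Sph.WT columns. In the Sph.WT columns every library was under 2 CPM for each of these 3 genes. The low expression covered a stretch of chromosome 9 (GRCh38, 21329665 to 23850601) that holds KLHL9, MTAP, CDKN2A, CDKN2B and ELAVL2. These are neighbours among the genes at 5 CPM or more in every capsule library. Each was at least 10-fold lower in every Sph.WT library than in any capsule library. FOCAD on one side was at 6.82, 9.42 and 7.44 CPM in Sph.WT and 57.9, 57.4 and 60.3 CPM in capsules, and on the other side PLAA was at 69.5, 81.04 and 71.6 against 45.2, 43.8 and 45.9 CPM. CDKN2A did not pass the test between capsules and L.O. columns (0.06 ± 0.11 on the log2 scale with its SE, adjusted p = 0.673).

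HOX genes, which encode positional identity in the embryo, followed the same split. Of 36 tested against Sph.WT columns, 35 were higher in capsules and none lower, with a median log2 difference of 6.46. Over all genes 43.2% were higher and 42.9% lower. HOXA5 was at 70.7, 64.8 and 71.7 CPM in capsules, 75.3, 78.6 and 77.7 in L.O. columns and 0 in all 3 libraries of the Sph.WT columns, at least 412-fold lower there with each library at the floor. HOXD10 was at 45.9, 45.1 and 46.1 CPM in capsules, 42.8, 40.2 and 38.7 in L.O. and 0, 0 and 0 in Sph.WT columns. HOXB9 was the most abundant, at 145, 149.96 and 146 CPM in capsules and 4.67, 5.34 and 5.39 CPM in Sph.WT columns. Unlike these, 24 of 38 HOX genes were lower in capsules than in L.O. columns, by a median of only -0.37, where 25.4% of all genes were lower.

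Among neuronal genes the 2 profiles differed in both directions: 16 of 26 tested members of a list of neuronal structure and synapse genes were higher and 8 lower in capsules than in Sph.WT columns, with a median log2 difference of 3.86. Among all genes 43.2% were higher and 42.9% lower. IRS4, an insulin receptor substrate, was at 747, 742 and 785 CPM in capsules and 654, 607 and 498 in L.O. columns, with 1 count over all Sph.WT libraries. The neurofilament gene NEFM was at 420.3, 406 and 439 CPM in capsules and 328, 318 and 253 in L.O. columns, also with 1 count over all Sph.WT libraries. The heavier neurofilament chain NEFH went the other way, at 1.10, 1.62 and 0.770 CPM in capsules, 2.13, 1.73 and 2.51 in L.O. and 4.25, 4.16 and 6.66 in Sph.WT columns, as did the microtubule protein MAP2, at 2.49, 1.90 and 2.45 CPM in capsules, 5.04, 4.11 and 3.52 in L.O. and 34.9, 43.5 and 37.2 in Sph.WT columns. UCHL1, a neuronal ubiquitin hydrolase, was at 265, 256 and 244 CPM in capsules, 232, 227 and 228 in L.O. and 1.73, 0.810 and 0 in Sph.WT columns. A list of genes typical of HEK293 (a cell line from human embryonic kidney that also expresses neuronal genes) had 15 of 22 tested members higher and 6 lower in capsules than in Sph.WT columns, with a median log2 difference of 5.90, against 0.01 over all genes. Against L.O. columns the counts were 6 higher and 9 lower of 21, with a median of 0.06, or 3 and 10 and -0.09 with library totals. The shares of all genes there were 24.7% higher and 25.4% lower by TMM scaling. The list's summed level was 3358 to 3597 CPM in capsules, 3077 to 3214 in L.O. and 938 to 994 in Sph.WT columns. The 6 lower members were NEFH, TUBB3, MAP2, ENO2, PEG10 and PAX8. PEG10 (0.881, 0.846 and 1.19 CPM in capsules, 2.18, 2.22 and 2.51 in L.O. and 254, 285 and 307 in Sph.WT columns) and PAX8 (0.294, 0.0705 and 0.210 CPM in capsules, 0.0560, 0.270 and 0.335 in L.O. and 48.04, 66.7 and 45.9 in Sph.WT columns) had the largest differences among them. In CD44, AXL, S100A4, CAV1, CDKN2A, MTAP and CDKN2B the capsule and L.O. columns go against their MDA-MB-231 label and the Sph.WT columns do not. The 6 lower members of the HEK293 list were instead higher in the Sph.WT columns. Not all genes split this way. Of the 35 genes typical of MDA-MB-231, 17 were at 10 CPM or more in every capsule library, 21 in every L.O. and 34 in every Sph.WT library. Of 19 tested members of a list of mesenchymal genes, 9 were higher and 9 lower in capsules than in Sph.WT columns. Their median was 0.21, or -0.17 with GC and length offsets. A shared origin of capsule and L.O. cells was not tested by genotype, which counts do not hold.

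**Figure D2:**
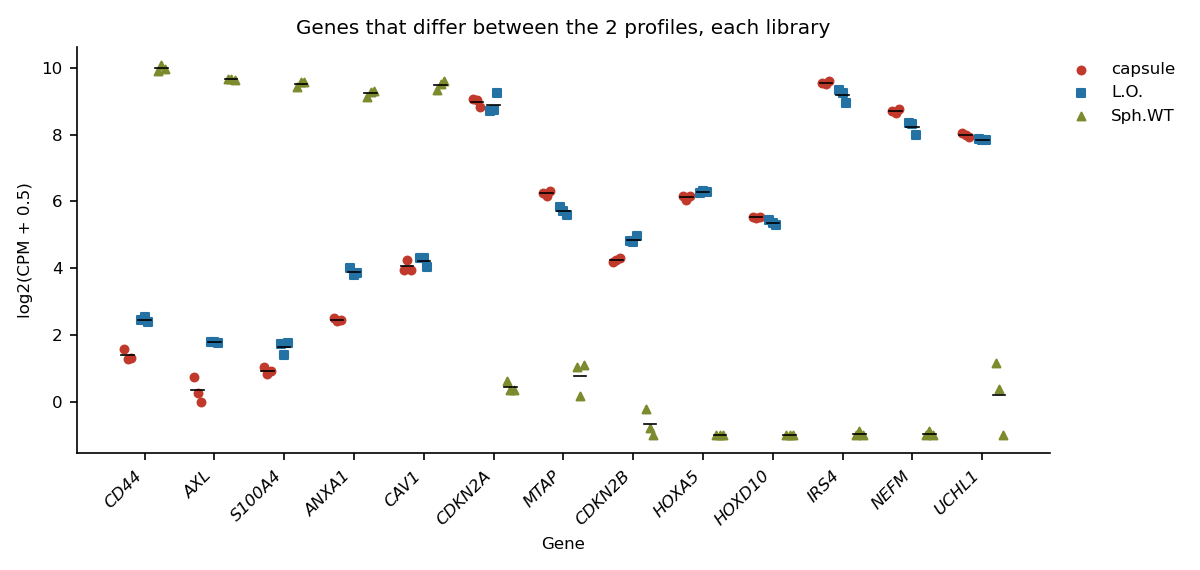
Levels of 13 genes in each of the 9 libraries on the log2(CPM + 0.5) axis, with a bar at each mean, where -1 is 0 counts. For each gene the Sph.WT points stand apart from all capsule and L.O. points, above them for CD44 to CAV1 and below them for CDKN2A to UCHL1.

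Of markers of cell types other than tumour cells, 9 of 16 immune, 11 of 12 fibroblast and 8 of 11 endothelial markers were in the count table. The immune markers summed to 23.9 to 24.7 CPM in capsules, 44.3 to 46.5 in L.O. and 165 to 189 in Sph.WT columns, with 3 of 7 tested members higher and 4 lower in capsules than in Sph.WT columns. CD14 had the lowest log2 difference, at 0.881, 1.41 and 0.770 CPM in capsules, 0.839, 0.649 and 0.893 in L.O. and 54.02, 62.7 and 47.6 in Sph.WT columns. The fibroblast markers summed to 113 to 125, 216 to 239 and 244 to 278 CPM in the same order, with 3 of 9 higher and 5 lower. COL1A2 had the lowest log2 difference, at 0.587, 0.212 and 0.560 CPM in capsules, 0.224, 0.432 and 0.279 in L.O. and 184, 192 and 156 in Sph.WT columns, and PDGFRA the highest, at 1.25, 1.06 and 1.68 CPM in capsules, 3.02, 1.73 and 1.84 in L.O. and 0, 0.110 and 0.425 in Sph.WT columns. The endothelial markers summed to 61.8 to 71.9, 88.5 to 104 and 58.4 to 67.5 CPM, with 3 of 7 higher and 4 lower. PECAM1 had the lowest log2 difference, at 0.220, 0 and 0 CPM in capsules, 0.224, 0.649 and 0.223 in L.O. and 5.09, 7.43 and 4.96 in Sph.WT columns, and FLT1 the highest, at 6.97, 6.84 and 7.42 CPM in capsules, 13.1, 17.2 and 13.9 in L.O. and 0, 0.110 and 0.0709 in Sph.WT columns. Of all genes tested against Sph.WT columns, 43.2% were higher and 42.9% lower. The counts of markers are therefore not read as a result about these cell types. The part of these markers in the results was not tested. In bulk samples fewer cells of a type and less RNA per cell cannot be told apart.

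No gene was on in all capsules and off in all 6 spheroid columns, or the reverse, by the rule of at least 5 CPM in every library of one group and at most 3 counts in every library of the other (0 of 17911 genes, or 0%, each way). The same was true against the L.O. columns alone (0 and 0, or 0%). Against the Sph.WT columns alone 241 genes (1.35%) were on in capsules and off, and 215 (1.2%) were off in capsules and on. Of the 241, 233 also reached 5 CPM in every L.O. library, at a median of 117% of their capsule level. Of the 215 none did, and their median L.O. level was 0.383% of the Sph.WT level. The lower and upper quartiles of that share were 0.124% and 1.08%.

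The genes on in capsules and off in Sph.WT columns were led by IRS4, NEFM, NEFL, NPTX1 and DPYSL5. The last of these, which shapes growth cones, was at 93.3, 95.9 and 86.6 CPM in capsules, 101, 111 and 99.9 in L.O. and 0 in all 3 libraries of the Sph.WT columns, at least 549-fold lower there. The sensory neuron factor POU4F1 was at 76.5, 68.7 and 70.9 CPM in capsules and the cartilage collagen COL2A1 at 59.2, 72.7 and 63.9. By list, the 241 held 14 of 38 HOX genes, 5 of 28 neuronal genes and 4 of 23 kidney or embryonic transcription factors. The share over all genes was 1.35%.

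The genes off in capsules and on in Sph.WT columns were led by CDCP1, a transmembrane substrate of SRC kinases, at 531, 658 and 545 CPM in Sph.WT columns, 0, 0.216 and 0 in L.O. and 0 in all 3 libraries of the capsules. That is at least 2702-fold lower in capsules. IFI16, a DNA sensor, was at 145, 159 and 154 CPM in Sph.WT columns and 0, 0.0705 and 0.140 in capsules, and TNFSF10, the death ligand TRAIL, at 144, 162 and 162 and 0.220, 0.0705 and 0.0700. CDCP1, IFI16 and TNFSF10 were below 1 CPM in every L.O. library too. Among the 215 were 5 of 20 clustered protocadherins, 4 of 27 interferon genes and 4 of 21 NF-kB or cytokine genes. The share over all genes was 1.2%.

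To show regions where transcription starts, 250 bases before the RefSeq start (GRCh38.p14) are given 5′ to 3′. They are given for CDKN2A and for the leading on or off gene in each direction. CDKN2A was above 3 counts in every Sph.WT library, so it is not an on or off gene by the rule. CpG pairs are in capitals, because a CpG-dense promoter is the kind that DNA methylation is known to silence. Methylation was not measured and was not tested as a cause. The CDKN2A stretch (chr9:21995325-21995574, minus strand) holds 24 CpG, that of IRS4 (chrX:108736564-108736813, minus strand) 16, and that of CDCP1 (chr3:45146379-45146628, minus strand) 20. Of all 27305 RefSeq promoters of this length, 51.9% hold at least 10, as do 79.2% of the 13502 that matched genes in the count table. Promoters matched 159 of the 241 and 147 of the 215 genes, fewer than 80%, so a check of CpG over either set is void.
CDKN2A: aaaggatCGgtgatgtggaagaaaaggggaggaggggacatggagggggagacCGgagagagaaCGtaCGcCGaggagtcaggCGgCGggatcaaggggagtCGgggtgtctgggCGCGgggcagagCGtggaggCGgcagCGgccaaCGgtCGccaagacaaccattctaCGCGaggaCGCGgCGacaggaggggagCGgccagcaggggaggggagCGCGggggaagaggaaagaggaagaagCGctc
IRS4: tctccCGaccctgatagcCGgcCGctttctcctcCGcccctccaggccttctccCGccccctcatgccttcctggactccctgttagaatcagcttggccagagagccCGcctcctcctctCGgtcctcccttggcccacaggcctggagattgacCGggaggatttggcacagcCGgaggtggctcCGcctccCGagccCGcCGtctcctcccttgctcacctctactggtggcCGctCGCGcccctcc
CDCP1: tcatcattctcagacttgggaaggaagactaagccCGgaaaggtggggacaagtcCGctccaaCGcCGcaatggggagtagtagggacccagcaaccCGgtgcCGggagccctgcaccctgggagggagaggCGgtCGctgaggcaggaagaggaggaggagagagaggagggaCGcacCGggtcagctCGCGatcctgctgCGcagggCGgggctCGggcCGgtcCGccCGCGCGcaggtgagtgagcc

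Genes at least 10-fold apart in every library also lay side by side along chromosomes. Runs of at least 3 neighbouring expressed genes numbered 15 with higher and 31 with lower levels in capsules than in Sph.WT columns. Expressed here means 5 CPM or more in every library of the higher set, so other genes could not break a run. The share of such genes that were 10-fold apart was not computed, so these numbers have no background. The higher runs included 12 genes of the HOXA cluster on chromosome 7 (27092993 to 27189293), 9 at HOXC, 7 at HOXB and 5 at HOXD. The longest lower run was 8 genes at the S100 and filaggrin region of chromosome 1 (152189303 to 153613137).

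With all 6 spheroid columns in 1 group, 390 of 16985 genes (2.3%) were higher and 249 (1.47%) lower in capsules by edgeR's quasi-likelihood test at an adjusted p under 0.05. None passed the test for a change beyond 2-fold (0%), with 1316 genes at an unadjusted p under 0.05 in that test, while DESeq2 called 283, all lower. With library totals as the only scaling the split was 99 higher and 260 lower, so the balance of directions depends on the scaling. The spread between the 2 spheroid profiles is part of the error in this test. The test counts the 6 spheroid columns as separate samples, although they form 2 tight sets. The pooled SEs and adjusted p-values are therefore uncertain. The largest among those at 20 CPM or more included the amino acid synthesis genes ASNS and PSAT1, which were higher, and the stress cytokine GDF15, which was lower. This choice of genes was added after the values were seen. Leaving out any capsule library left no gene called, and leaving out L.O. library 2 or 3 or Sph.WT library 1, 2 or 3 left 287, 409, 154, 240 or 207.

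ASNS, the asparagine synthetase, was at 298, 293 and 309.9 CPM in capsules, 90.9, 82.2 and 74.9962 in L.O. and 35.6, 37.2 and 37.6 in Sph.WT columns. The capsules were above every spheroid library, with a log2 difference of 2.33 ± 0.34 (SE, adjusted p = 0.0166). PSAT1, of serine synthesis, was at 309, 299 and 300.4 CPM in capsules, 108, 102 and 94.7 in L.O. and 62.2, 57.7 and 64.99 in Sph.WT columns (1.89 ± 0.22, adjusted p = 0.0140). CEBPG, a partner of ATF4, was at 111, 109 and 116 CPM in capsules, 63.5, 56.6 and 56.2 in L.O. and 34.3, 43.9 and 37.7 in Sph.WT columns (1.20 ± 0.20, adjusted p = 0.0223). All 3 groups of values were separate, in the order capsule, L.O., Sph.WT.

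GDF15, which encodes a secreted stress cytokine, was at 2.27, 2.89 and 2.03 CPM in capsules, 21.6, 22.9 and 28.3 in L.O. and 46.4, 42.8 and 34.02 in Sph.WT columns, a log2 difference of -3.76 ± 0.35 (adjusted p = 0.0140). The p53 targets TP53INP1 (-1.65 ± 0.18, adjusted p = 0.0140) and PHLDA3 (-1.65 ± 0.22, adjusted p = 0.0140) and the cell cycle inhibitor CDKN1A (-1.39 ± 0.25, adjusted p = 0.0261) were lower too. CDKN1A was at 39.99, 45.8 and 39.7 CPM in capsules, 131, 128 and 144 in L.O. and 97.5, 70.5 and 86.7 in Sph.WT columns. The galectin LGALS1 was at 29.7, 32.2 and 25.98 CPM in capsules, 108, 93.4 and 98.7 in L.O. and 413, 261 and 357 in Sph.WT columns (-2.92 ± 0.63, adjusted p = 0.0428). For each of these genes all capsule libraries lay below all 6 spheroid libraries.

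By list, the pooled comparison called 10 of 24 genes of MYC and ribosome biogenesis higher and none lower, 7 of 30 nuclear genes of oxidative phosphorylation, 6 of 20 genes of the ATF4 response and 5 of 30 ribosomal proteins. It called 6 of 23 p53 targets lower and none higher, and 3 of 25 HIF targets. The medians were 0.78, 0.54, 0.77, 0.88, -0.59 and -1.06, against -0.06 over all genes. Among all genes tested 2.3% were called higher and 1.47% lower. Of 38 HOX genes and 35 genes typical of MDA-MB-231, 0 and 2 were called, although their medians were 0.56 and -3.40.

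A rule without a model counted genes for which every capsule library lay outside the range of all 6 spheroid libraries. These were 2400 above (14.1% of 16985) and 2126 below (12.5%). With the nearest libraries at least 1.5-fold apart they were 147 (0.865%) and 406 (2.39%). Among ribosomal proteins 25 of 30 lay above the range, as did 22 of 28 genes of S phase, 17 of 24 of MYC and ribosome biogenesis, 20 of 30 of oxidative phosphorylation and 13 of 20 of the ATF4 response, with none of these lists' members below it. Below the range lay 18 of 36 collagens and matrix proteins, 13 of 25 HIF targets, 11 of 27 interferon genes and 9 of 23 p53 targets, with 1, 1, 0 and 1 above it.

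The comparison of capsules with the L.O. columns, whose profile was like theirs, gave 3934 genes higher (24.7%) and 4036 lower (25.4%) of 15919. Past the 2-fold test were 19 higher (0.119%) and 120 lower (0.754%). With library totals as the only scaling the median log2 difference of all genes moved from -0.01 to -0.16 and the split to 2275 higher and 5852 lower. Directions are therefore given relative to TMM scaling, and most list medians move with the scaling. Amino acid synthesis, ribosome production and cholesterol synthesis genes were higher in capsules, and p53 targets, matrix genes and HIF targets lower. Leaving out 1 library changed the number past the 2-fold test to between 72 and 140, from 139, with capsule 1, 2 or 3 or L.O. library 2 out giving 90, 72, 81 or 82. Capsules are in both this comparison and that with the Sph.WT columns, so the values are set side by side and not correlated. GC content moved with the L.O. comparison: the median log2 difference was 0.26 in the fifth of genes with the lowest GC and -0.28 in that with the highest, and offsets for GC and length gave 3632 higher and 3857 lower. In the Sph.WT comparison the medians ran the other way with GC, from -0.36 to 0.28, and with length from 0.35 for the shortest to -0.35 for the longest genes.

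**Figure D3:**
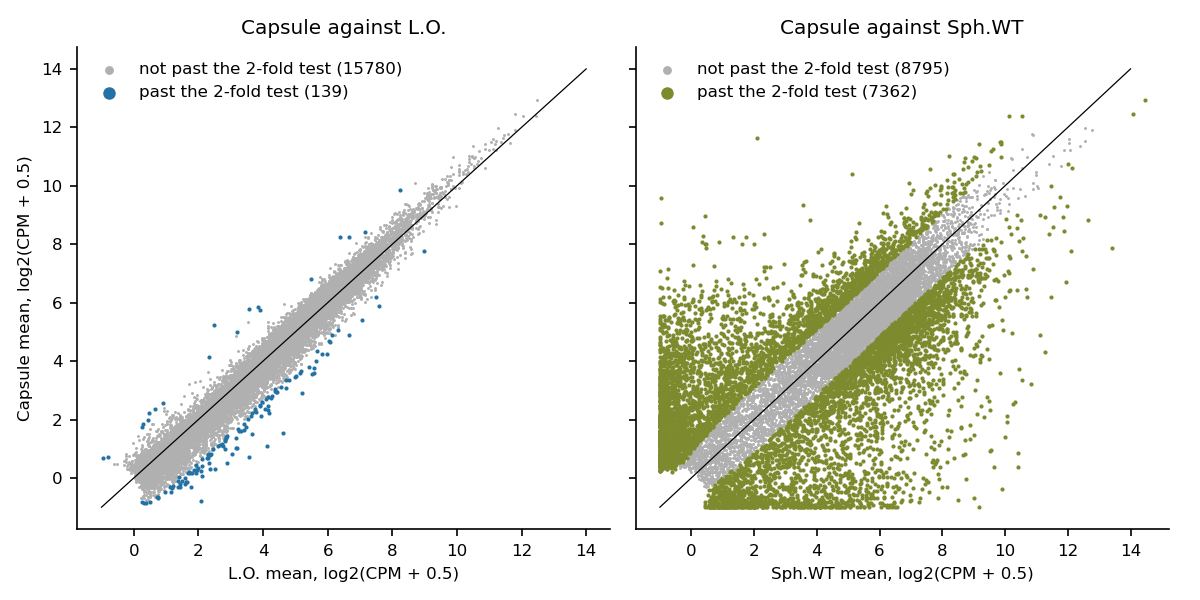
Mean level of each gene in capsules against the L.O. columns (left) and against the Sph.WT columns (right), both axes log2(CPM + 0.5), with genes past the 2-fold test coloured. The left panel hugs the line of equal levels with 139 coloured genes, and the right panel spreads widely, with 7362.

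Genes of the ATF4 response were higher in capsules than in L.O. columns for 18 of 20 members and lower for none, with a median of 0.85. Of all genes tested, 24.7% were higher and 25.4% lower. ATF4 itself was at 962, 975 and 942 CPM in capsules and 555, 531 and 552 in L.O. columns (0.81 ± 0.07, adjusted p = 2.48e-08). CHAC1, which degrades glutathione, was at 32.3, 33.3 and 29.3 CPM in capsules and 8.06, 8.92 and 9.04 in L.O. columns (1.86 ± 0.10, adjusted p = 1.72e-10). The cystine importer SLC7A11 was at 54.1, 52.9 and 64.2 CPM in capsules and 15.4, 14.2 and 11.4 in L.O. columns (2.05 ± 0.11), and CTH, which makes cysteine, at 49.2, 55.9 and 56.4 CPM in capsules and 15.8, 15.2 and 12.3 in L.O. columns (1.90 ± 0.10). None of these capsule values overlapped the L.O. values. The folate enzyme MTHFD2 (1.27 ± 0.08) and the serine synthesis enzymes PHGDH (0.86 ± 0.07) and PSPH (0.85 ± 0.08) were higher as well. FGF21, a hormone that ATF4 induces, was at 1.17, 1.20 and 0.980 CPM in capsules and at 0, 0.0540 and 0 CPM in L.O. columns. DDIT3, a proapoptotic factor, had a log2 difference of 0.19 and did not pass the test. With library totals 16 members were higher and none lower. Against Sph.WT columns, with 43.2% of all genes higher and 42.9% lower, 13 members were higher and 5 lower, SLC7A11 among the latter (-0.68).

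Of 23 p53 targets, 20 were lower in capsules than in L.O. columns and 1 was higher, with a median of -0.85, and 6 passed the 2-fold test. Over all genes 25.4% were lower and 24.7% higher. GDF15 had a log2 difference of -3.34 ± 0.16 (adjusted p = 2.10e-11) and EDA2R, a receptor of the TNF family, was at 0.734, 1.62 and 1.05 CPM in capsules and 13.04, 11.03 and 10.04 in L.O. columns (-3.31 ± 0.21). The repair factor DDB2 was at 20.2, 18.4 and 20.2 CPM in capsules and 49.7, 49.8 and 53.2 in L.O. columns (-1.38 ± 0.09) and CDKN1A differed by -1.69 ± 0.08. BAX (-0.85 ± 0.10) and BBC3 (-0.86 ± 0.11), both proapoptotic, were also lower. The member that was higher, SESN2, is known to be an ATF4 target too (0.27 ± 0.07). Against Sph.WT columns, where 43.2% of all genes were higher and 42.9% lower, 11 of the 23 were higher and 10 lower. The median there was 0.06, or -0.46 with GC and length offsets. DDB2 was at 8.79, 8.17 and 7.23 CPM there, and BTG2, an antiproliferative gene, was at 20.5, 22.3 and 20.1 CPM in capsules, 44.5, 43.5 and 43.6 in L.O. and 1.91, 1.25 and 2.20 in Sph.WT columns. With GC and length offsets the L.O. counts were 21 lower and 1 higher for p53 targets and 18 higher for the ATF4 list.

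**Figure D4:**
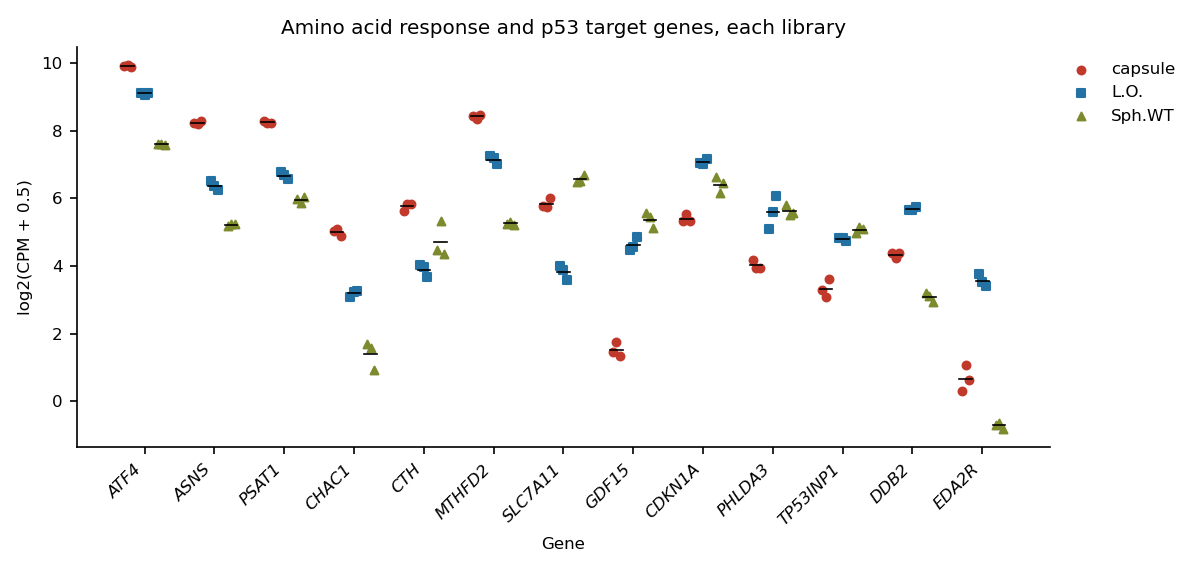
Levels of 7 genes of the ATF4 response and 6 p53 targets in each library, log2(CPM + 0.5), with a bar at each mean. For all 13 genes capsule points are clear of the L.O. points, above them from ATF4 to SLC7A11 and below them from GDF15 to EDA2R, and the Sph.WT points take no one side.

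Most genes of growth and translation were higher in capsules than in L.O. columns. In that comparison 24.7% of all genes were higher and 25.4% lower. MYC, the growth transcription factor, was at 144, 172 and 153 CPM in capsules and 85.00, 85.2 and 80.97 in L.O. columns (0.90 ± 0.08, adjusted p = 3.35e-08). Of 24 genes of MYC and ribosome biogenesis 20 were higher and 2 lower (MYCN and MYCL), with a median of 0.60. The nucleolar GTPase GNL3 was at 358, 346 and 388 CPM in capsules and 209.7, 196 and 183 in L.O. columns. Ribosomal proteins had 25 of 30 higher, none lower and a median of 0.48, with RPL10 at 723, 678 and 595 CPM in capsules and 377, 354 and 286 in L.O. columns. Ribosomal protein reads may be split with pseudogene copies, so single members are uncertain. S phase genes had 20 of 28 higher and 2 lower (0.33), with the helicase subunit MCM7 at 0.37 ± 0.07. G2 and mitosis genes had 6 of 26 higher and 5 lower (0.08), not above the shares of all genes. TOP2A, at -0.01 ± 0.09, did not pass the test. With library totals S phase genes had 12 higher and 3 lower. The G2 and mitosis counts turned to 2 higher and 7 lower with totals and to 0 and 11 with GC and length offsets. Against Sph.WT columns the 4 lists had 21, 30, 25 and 15 members higher and 2, 0, 2 and 5 lower. The shares of all genes there were 43.2% higher and 42.9% lower.

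Sterol and respiration genes were higher than in L.O. columns for most members, where 24.7% of all genes were higher and 25.4% lower. Of 22 tested cholesterol genes 17 were higher and none lower than in L.O. columns, with a median of 0.36. HMGCS1, an early enzyme of the pathway, was at 149, 139 and 151 CPM in capsules and 71.9, 65.8 and 61.3 in L.O. columns (1.14 ± 0.08) and the sterol sensor INSIG1 at 214, 195 and 207 CPM in capsules and 95.5, 101 and 105 in L.O. columns (1.03 ± 0.07). With library totals 12 cholesterol genes were higher and none lower. Against Sph.WT columns 16 of 23 cholesterol genes were lower and 4 higher, where 42.9% of all genes were lower and 43.2% higher. Nuclear oxidative phosphorylation genes had 22 of 30 higher than in L.O. columns and none lower (median 0.36), with COX7B at 0.93 ± 0.08, and 17 higher and none lower with library totals. Mitochondrially encoded mRNAs had 9 of 13 higher and none lower (0.33), which became 5 higher and 4 lower with GC and length offsets.

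Of 25 HIF targets 14 were lower than in L.O. columns and 2 higher (-0.24), where 25.4% of all genes were lower and 24.7% higher. The glucose importer SLC2A1 was at 67.9, 74.6 and 62.9 CPM in capsules and 95.1, 95.98 and 102 in L.O. columns (-0.52 ± 0.08) and the glycolysis regulator PFKFB4 at 19.4, 18.3 and 17.2 CPM in capsules and 32.6, 32.1 and 36.3 in L.O. columns (-0.89 ± 0.09), whereas VEGFA, the angiogenic factor, did not pass the test (0.05 ± 0.08). The higher 2 were STC2 and DDIT4, which are also known ATF4 targets. CA9, induced by hypoxia, was at 0.587, 0.705 and 0 CPM in capsules and 0.951, 0.973 and 1.95 in L.O. columns.

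Of 34 collagens and matrix proteins 22 were lower in capsules than in L.O. columns and 1 higher, with a median of -0.47, which became 17 lower and 5 higher with GC and length offsets. Among all genes 25.4% were lower and 24.7% higher. The laminin chain LAMB3 was at 0.954, 1.69 and 1.19 CPM in capsules, 8.34, 8.16 and 6.75 in L.O. and 407, 461 and 400.2 in Sph.WT columns. The adhesion molecule L1CAM was at 10.4, 13.3 and 10.99 CPM in capsules, 33.3, 35.6 and 35.2 in L.O. and 402, 433 and 402 in Sph.WT columns and the cytokine LIF at 4.04, 4.58 and 3.92 CPM in capsules, 17.9, 16.2 and 19.3 in L.O. and 74.00, 69.7 and 65.2 in Sph.WT columns. For these 3 genes all L.O. values lay above the capsules and below the Sph.WT columns. Of 19 tested interferon genes 12 were lower and none higher (-0.59). Replication-dependent histones, whose mRNAs mostly lack a poly(A) tail, had 12 of 14 lower and 2 higher (-1.03). The 2 higher members were H4C3 and the linker histone H1-4, at 4.11, 4.58 and 5.25 CPM in capsules and 1.34, 0.703 and 1.23 in L.O. columns (2.09 ± 0.24). Histone genes are near-identical copies, so single members are uncertain.

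Short structured RNAs made up 3 of the 8 largest increases against the L.O. columns among genes at 20 CPM or more in every capsule library that were also higher against the Sph.WT columns. RMRP, an RNA of the processing of ribosomal RNA, was at 36.3, 28.99 and 45.3 CPM in capsules, 3.36, 1.62 and 10.3 in L.O. and 0.120, 0.699 and 0.0709 in Sph.WT columns. RN7SK, which restrains transcription elongation, was at 49.97, 56.01 and 55.9 CPM in capsules, 7.89, 4.32 and 21.8 in L.O. and 0.718, 0.920 and 1.06 in Sph.WT columns, and RN7SL1, of the signal recognition particle, at 799, 1037 and 959 CPM in capsules, 173, 298 and 439 in L.O. and 97.1, 139.5 and 163 in Sph.WT columns. The L.O. values of RMRP and RN7SK spread widely, with library 3 above the others, and capsule values did not overlap them. All short structured RNAs together took 0.257% ± 0.0281 of counts in capsules, 0.109% ± 0.0435 in L.O. and 0.0298% ± 0.00555 in Sph.WT columns (SD, n = 3). The capsule share was above that of all 6 spheroid libraries, at an exact permutation p of 0.0119 (two-sided), the smallest that 3 against 6 can give. It was 0.0714 after Benjamini-Hochberg adjustment over 6 shares. The pooled permutation test treats the 6 spheroid libraries as exchangeable, although they form 2 unlike sets.

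Other shares of counts differed mostly with the profile. Mitochondrial mRNAs took 3.29% ± 0.109 in capsules, 2.83% ± 0.184 in L.O. and 5.38% ± 0.0306 in Sph.WT columns, and nuclear long noncoding RNAs 0.150% ± 0.0114, 0.168% ± 0.00435 and 1.01% ± 0.0724 (SD, n = 3). MALAT1, a nuclear RNA, was at 420.5, 404 and 528 CPM in capsules and 6385, 6963 and 5702 in Sph.WT columns. In the pooled comparison the exact permutation p for these was 0.464 and 0.0952 (two-sided), or 0.5 and 0.286 after adjustment. Within each set of 3 against 3 no exact p can go below 0.1, and all 6 shares reached it in both sets.

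Against the Sph.WT columns the capsules differed in most genes: 6977 of 16157 (43.2%) were higher and 6932 (42.9%) lower, with 3717 (23%) and 3645 (22.6%) past the 2-fold test. With library totals the median moved from 0.01 to 0.29 and the split to 8202 higher and 5721 lower. Interferon genes were 24 of 27 lower and 1 higher (median -3.32), class I antigen presentation 14 of 15 lower and 1 higher (-3.38), NF-kB and cytokine genes 18 of 20 lower and 2 higher (-4.72) and RAS-ERK feedback genes 20 of 23 lower and 2 higher (-3.46). YAP and TAZ targets were 21 of 23 lower and 2 higher (-3.43), integrins and focal adhesion genes 23 of 25 lower and 2 higher (-3.08) and NRF2 targets 18 of 20 lower and 2 higher (-2.55). The integrin ITGA3 was at 17.6, 20.3 and 20.2 CPM in capsules, 24.7, 22.4 and 26.95 in L.O. and 2527, 2560.3 and 2323 in Sph.WT columns. THBS1, a matrix glycoprotein that YAP is known to raise, was at 1.32, 1.13 and 1.47 CPM in capsules, 1.40, 1.89 and 2.23 in L.O. and 1293, 1306 and 1465 in Sph.WT columns, and CD74, the invariant chain of antigen presentation, at 0.807, 0.705 and 0.840 CPM in capsules, 1.29, 1.30 and 1.34 in L.O. and 1469.7, 1287 and 1353 in Sph.WT columns. In all 3 genes the L.O. libraries sat with the capsules. In the same comparison HIF targets were 22 of 25 lower and 1 higher (-1.51).

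**Figure D5:**
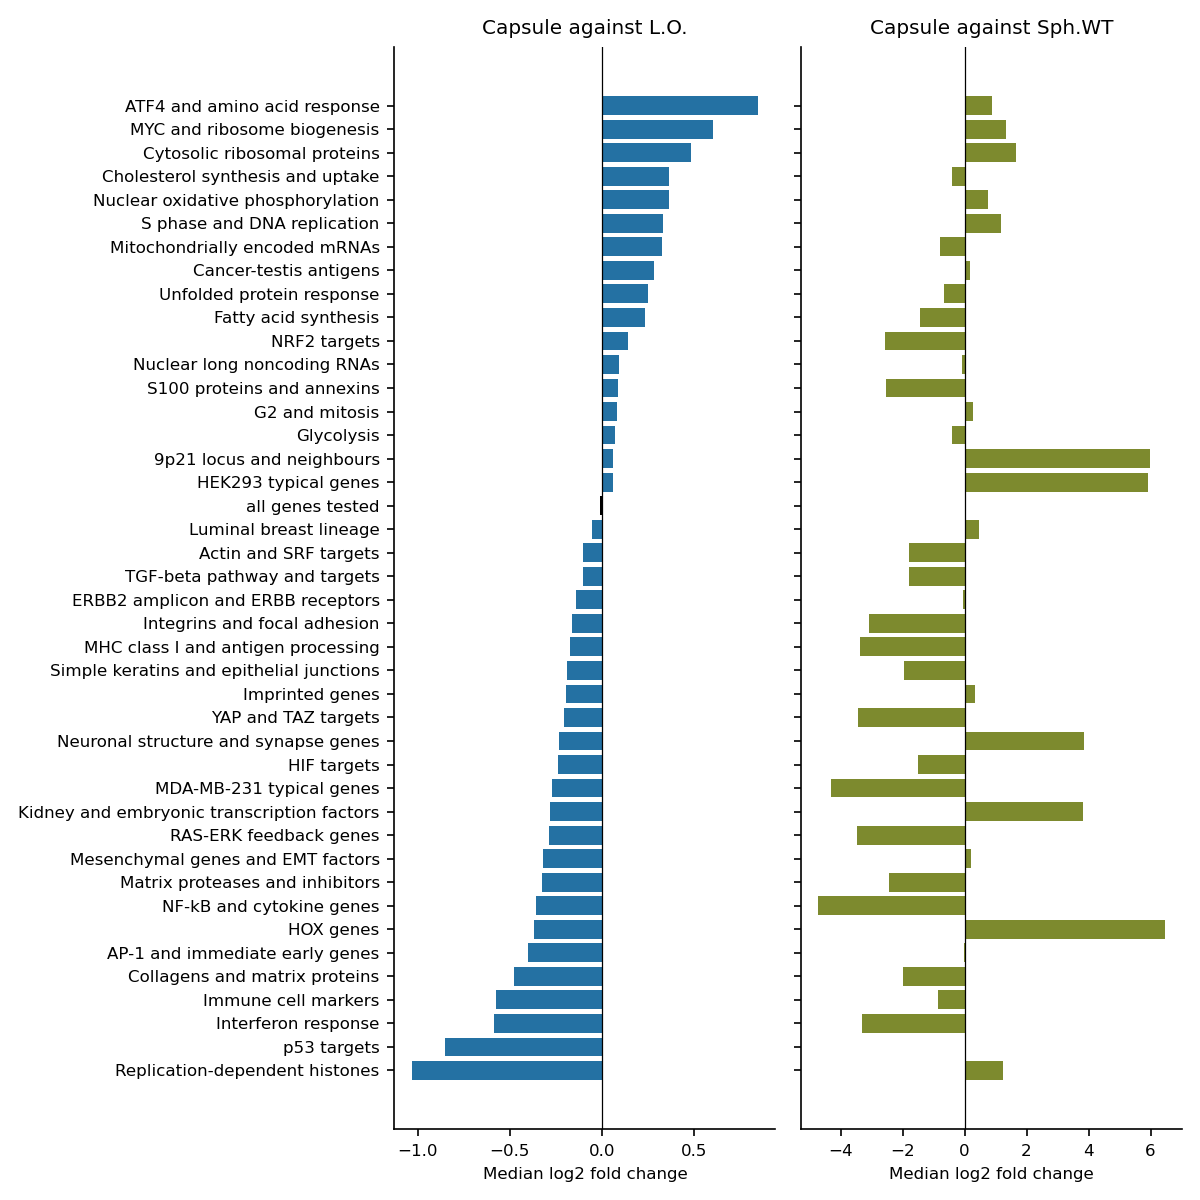
Median log2 fold change of each list with at least 9 members tested against the L.O. columns (all genes in black), capsules against L.O. columns (left) and against Sph.WT columns (right), on different scales. On the left the medians stay between -1.03 and 0.85, and on the right they span -4.72 to 6.46.

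ERBB2, the target of trastuzumab, was at 135, 137 and 123 CPM in capsules, 138, 161 and 135 in L.O. and 184, 159 and 158 in Sph.WT columns. It did not pass the test against L.O. columns (-0.14 ± 0.08, adjusted p = 0.138) or all spheroids (adjusted p = 0.214) and was lower against Sph.WT columns (-0.31 ± 0.08, adjusted p = 0.00121). EGFR was at 11.7, 16.01 and 11.6 CPM in capsules, 16.3, 17.4 and 11.7 in L.O. and 156, 212 and 189 in Sph.WT columns.

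Medians per chromosome were close to 0 against the L.O. columns, from -0.24 (chromosome 19) to 0.12 (chromosome 8). Against the Sph.WT columns they ran from -0.62 (chromosome 20) to 0.92 (chromosome 22). Over 505 overlapping windows of 40 neighbouring genes at 10 CPM or more, the SD of the window medians was 0.148 against L.O. and 0.501 against Sph.WT columns. Single genes also spread more widely against Sph.WT columns. On chromosome 1 their quartiles were -0.83 and 1.21 there, and -0.39 and 0.26 against L.O. columns. A regional effect was not tested. The lowest window against Sph.WT columns lay on chromosome 10 (21756548 to 38067834) at -1.49, and the highest on chromosome 22 (19479466 to 23838009) at 1.42, where the L.O. comparison had 0.21 and -0.07. Copy number was not measured.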

How the data were processed

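RNA sequencing was done on 9 samples, all of 1 human cell line by their labels. The deposited table holds whole-number counts per gene, which the authors made with featureCounts on hg38, per the submitters' processing notes. These notes also name limma. The aligner, its settings and the strand setting are not given in the sources used here, so overlapping and antisense genes may share reads. Capsule and spheroid columns were assigned by column name. Counts were scaled by TMM and filtered by filterByExpr in edgeR 4.0.16 (R 4.3.3), tested by the quasi-likelihood test and by glmTreat against a 2-fold change, with Benjamini-Hochberg adjustment over all genes tested and a threshold of 0.05. CPM values use the TMM factors of all 9 libraries, so they compare a gene between libraries and not genes of different length. Totals of 13212665 to 33263076 counts per library set the precision. Genes on and off, count shares and chromosome medians were computed from the same table, with positions from RefSeq GRCh38.p14. The scripts were tested on simulated data. The simulated spheroid group of the pooled comparison did not hold 2 unlike profiles, so the pooled test was not checked for that case. Alternatives were other scalings and filters, DESeq2 1.42.0, limma 3.58.1, leaving out each library, a replicate block and each spheroid set alone.

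A naming rule marked up to 12 of the largest changes past the 2-fold test in each direction, at 20 CPM or more with the same direction against both sets. It also marked the 12 most abundant on and off genes in each direction, all members of the 9p21 and ERBB2 lists, and up to 4 members of each other list. The text names only some of the marked genes. The largest changes in the pooled test and other list members were named after values were seen. The members and lists were chosen with earlier results of these data known. No gene passed the pooled 2-fold test, so the first part of the rule was applied to each spheroid set.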

Additional observations from a re-analysis of the deposited data

How the results depend on the processing

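The call count of the pooled comparison (639 genes) depended on the method: it was 359 with library totals, 4025 by DESeq2, 12643 with the 2 spheroid sets as separate levels, 7970 with the L.O. columns only and 13909 with the Sph.WT columns only. It ranged from 0 to 604 when 1 library was left out. The cause was not tested. The pooled count past the 2-fold test (0) was 1 with library totals, 1 with upper quartile scaling, 1 with genes at 10 CPM or more, 283 by DESeq2, 3753 with the sets as levels, 139 with L.O. only and 7362 with Sph.WT only, and 0 without any 1 library.

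Against the L.O. columns, calls ranged from 6592 to 7925 without 1 library, and the 139 genes past the 2-fold test became 244 with totals, 70 at 10 CPM or more, 41 by DESeq2, 50 by limma voom and 72 to 140 without 1 library. Against the Sph.WT columns, calls ranged from 13757 to 13988 and genes past the 2-fold test from 7298 to 7520 without 1 library, and the latter were 4672 at 10 CPM or more, where fewer genes were tested.

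The 241 genes on in capsules were 561 at 1 CPM, 47 at 20 CPM, 64 with off at 0 counts, 458 at 10 counts, 624 at under 1 CPM and 246 to 293 without 1 library. The 215 off in capsules were 450, 94, 62, 396 and 444 in that order, and 218 to 235 without 1 library. Counts of 0 for all 6 spheroids became 241 on and 215 off with the Sph.WT columns only, and 3 off at 1 CPM (4 off against L.O. alone at 1 CPM). Differences in shares of counts turned sign with the L.O. columns only for mitochondrial mRNAs (0.459 percentage points), mitochondrial rRNAs (0.286) and the 10 most abundant genes (0.437), and with the Sph.WT columns only for histones (0.00548).

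Without a call in the main or the alternative setting, 35 genes marked by the naming rule against L.O. and 2 against Sph.WT changed direction in some setting. Marked genes that changed direction and were called in either setting did so mainly with GC and length offsets. Against L.O. these were FASN (0.41), FLNA (0.19), NDC80 (-0.18), KLHL9 (-0.15), CDT1 (0.0052) and STARD4 (-0.21). Against Sph.WT they were FASN (-0.066), GSTP1 (-0.35), HMOX1 (-0.020), VLDLR (0.039), UTP20 (0.025), EGFL7 (-0.10), DDIT4 (-0.21), CAAP1 (0.12) and H2BC12 (-0.47). With totals and upper quartile scaling they were NDRG1 (0.099 and 0.078), CAAP1 (0.036 and 0.017) and MIEN1 (0.21 and 0.19).

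Replicate numbers did not pair the samples: correlations of same-numbered deviations ran from -0.33 to 0.16. With the number as a replicate block the pooled calls were 0, those against L.O. 7145 (93 past the 2-fold test) and those against Sph.WT 13876 (7311). A count of 0 allows 0.110 to 0.220 CPM, which limits statements on genes that are off.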
